A study of Homo sapiens with 12 samples.

Results

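The enzymes of ceramide and sphingosine-1-phosphate metabolism were followed in chronic lymphocytic leukaemia cell lines with mutant or wild-type U1, the small nuclear RNA that recognises 5′ splice sites. The set holds 10 of the 57820 genes in the count table: ASAH1, SGPL1, SPHK1, SPHK2, CERS2, CERS5, CERS6, SMPD1, SPTLC1 and SPTLC2. They were taken by symbol, and all 10 passed the filter on low counts. The 3 lines, JVM3, HG3 and MEC1, are established human B cell leukaemia lines, and each was sequenced with the U1 g.3A>C mutation and with wild-type U1. Every line and status has 2 libraries, which the series calls technical replicates, so 12 libraries were analysed. How the mutant U1 was introduced, and whether each state is 1 clone, the sources used here do not say. The set was chosen with earlier results of these data known. Which measured values it was selected on is not recorded, and ASAH1, its leading gene, is treated as chosen by its mutant and wild-type counts.

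Sphingolipids are built on a backbone made by serine palmitoyltransferase, of which SPTLC1 and SPTLC2 are subunits. Ceramide synthases (CERS2, CERS5, CERS6) attach fatty acids of different lengths, and acid sphingomyelinase (SMPD1) releases ceramide from sphingomyelin in the lysosome. Acid ceramidase (ASAH1) splits ceramide to sphingosine, the sphingosine kinases SPHK1 and SPHK2 phosphorylate it to sphingosine-1-phosphate, and the lyase SGPL1 breaks that signal down irreversibly. Ceramide is generally linked to growth arrest and cell death, and sphingosine-1-phosphate to survival and to lymphocyte traffic.

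The clearest difference between mutant and wild-type U1 within these genes was in splicing of SGPL1, so the sequences it involves are shown here. U1 pairs through its 5′ end with the first bases of an intron, and the mutation changes the third base of U1, in capitals in the first pair of lines. The inserted SGPL1 exon follows, with the first in-frame stop codon in capitals. The last line is its donor site, the final 10 exon bases and the first 10 intron bases, with the sixth intron base in capitals. All were read from GENCODE 29 transcripts (GRCh38), the exon and donor from SGPL1-204. In the junction file the exon lies at chr10:72579940-72580056 (hg19, plus strand).
U1 5′ end, wild type: atActtacctg
U1 5′ end, g.3A>C: atCcttacctg
SGPL1 inserted exon: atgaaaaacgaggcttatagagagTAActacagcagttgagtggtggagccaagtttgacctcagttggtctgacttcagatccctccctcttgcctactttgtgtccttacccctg
SGPL1 inserted exon donor site: cttacccctggtaagGgtag
Over the 9 bases that face U1 positions 3 to 11, the donor site can pair with wild-type U1 at 7 bases and with mutant U1 at 8. For the consensus donor site the same counts are 9 and 8. The base that faces position 3 is the sixth of the intron, which is G in SGPL1. These are counts of matching letters and not measurements of binding. The share of other donor sites with G at the sixth intron base was not computed. Any part of this pairing in the splicing difference was not tested.

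Libraries held 29880079 to 39716818 counts, and the 6 junction columns, 1 per line and status, held 15537369 to 17917160 reads. RNU1-1, an annotated U1 gene, was at 58.4 and 59.1 CPM (counts per 1000000 counts, scaled by TMM factors) in mutant JVM3, against 42.5 and 43.5 CPM in wild type. It was at 250 and 165 CPM in mutant HG3, against 29.5 and 28.8 CPM in wild type, and at 23.2 and 21.9 CPM in mutant MEC1, against 12.4 and 12 CPM in wild type. U1 has near-identical copies, so these counts are uncertain and do not separate the alleles. The 7 B cell markers summed to 1806 to 2093 CPM in the mutant libraries and 1850 to 2167 CPM in the wild-type libraries. The 4 T cell markers summed to at most 0.96 CPM in mutant and 1.03 CPM in wild-type libraries, with 0 of 4 over 1 CPM. Myeloid markers (1 of 4 over 1 CPM) summed to 0.495 to 2.38 CPM in mutant and 0.652 to 1.80 CPM in wild-type libraries, and epithelial markers (3 of 4) to 1.92 to 11.2 CPM in mutant and 4.21 to 15.6 CPM in wild-type libraries. Of these, CDH1 was at 6.94 CPM in mutant and 10.7 CPM in wild-type JVM3, at 1.66 CPM in mutant and 4.24 CPM in wild-type HG3, and at 4.57 CPM in mutant and 13.4 CPM in wild-type MEC1, lower with mutant U1 in each line. Its part in the results was not tested. In RNA from bulk cultures, fewer cells with a transcript and less of it per cell cannot be told apart.

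ASAH1 (ENSG00000104763.13, chromosome 8) was higher with mutant U1 in HG3 and lower in the other two lines. In HG3 it was at 314 and 319 CPM in the mutant libraries, against 154 and 159 CPM in the wild-type libraries, a ratio of 2.02 (95% counting interval 1.97 to 2.07). The JVM3 libraries had 63.1 and 63.3 CPM with mutant U1, against 71.4 and 73.2 CPM with wild type, a ratio of 0.873 (0.837 to 0.910). In MEC1 it was at 111 and 115 CPM in mutant, against 124 and 129 CPM in wild type, a ratio of 0.891 (0.865 to 0.919). The mutant and wild-type libraries did not overlap in any line, and the direction differed between lines. With 2 technical replicates a side, libraries can separate easily. The share of all genes that do so was not computed, here or for the enzymes below. Over the 3 lines ASAH1 averaged 164 ± 134 CPM in mutant and 118 ± 42.6 CPM in wild-type cells (SD, n = 3 lines each), a log2 difference of 0.22 with an SE of 0.40. That value turned to -0.18 without HG3, and was 0.41 without JVM3 and 0.42 without MEC1. ASAH1 was chosen with results of these data known, so its difference between mutant and wild type is given as a description with no test. The intervals are no test either, since they cover counting error only and replicates differed by more than that. HG3 is also the line in which RNU1-1 counts differed most between mutant and wild type, and any part of that in the ASAH1 level was not tested.

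**Figure D1:**
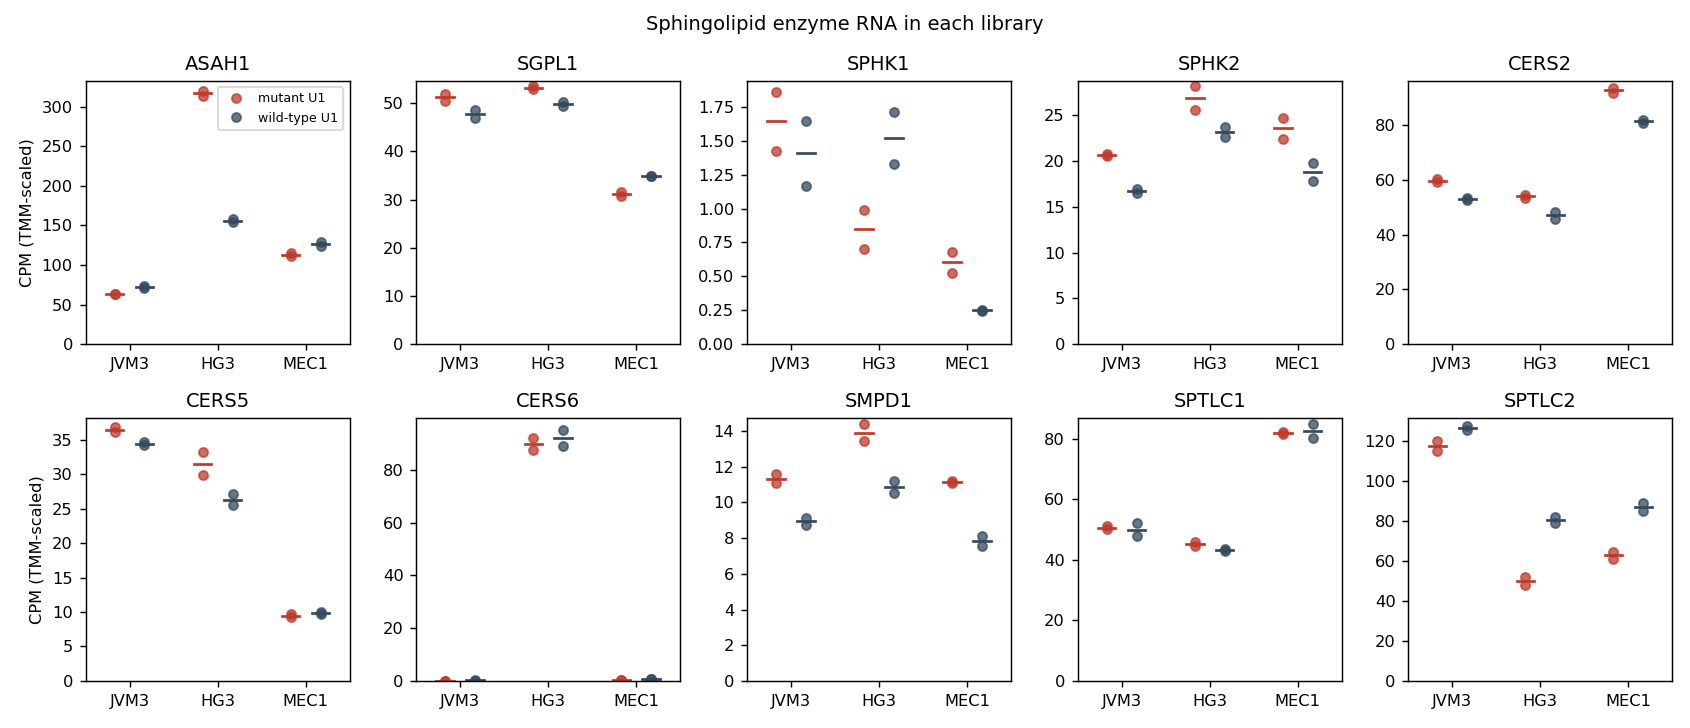
TMM-scaled CPM of the 10 enzymes in every library, mutant (red) left of wild type (dark) in each line. Points are technical replicates and bars their means, and each panel has its own axis from 0. ASAH1 reaches 314 and 319 CPM in mutant HG3, and CERS6 is near 0 in JVM3 and MEC1.

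The junction reads of ASAH1 showed the same split by line along the transcript. Of 9 ASAH1 junctions with at least 20 reads, all were annotated, and 7 had at least 100 reads in every line. Mutant over wild-type ratios of these 7, each scaled to its column's total, ran from 1.66 to 2.37 in HG3, with a median of 2.11. They ran from 0.741 to 1.11 in JVM3 (median 0.876) and from 0.837 to 0.962 in MEC1 (median 0.905). Every one of the 7 was thus higher with mutant U1 in HG3 and lower in MEC1, while JVM3 held values on both sides of 1. The junctions come from the same libraries as the gene counts and are not independent of them.

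**Figure D2:**
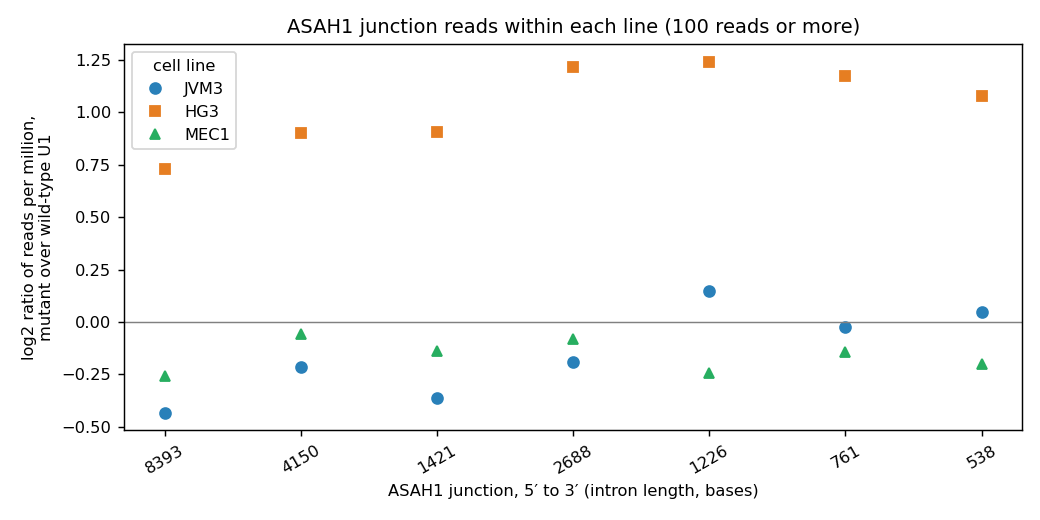
log2 ratio of junction reads, scaled to each column's total, mutant over wild-type U1, for the 7 ASAH1 junctions with at least 100 reads in every line, in transcript order and named by intron length in bases. Each point is 1 junction in 1 line. All HG3 points lie above 0 and all MEC1 points below it.

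The choice of splice site within ASAH1 varied little by comparison. The largest mean difference in junction use was 1.53 points, at the acceptor where a pair of first introns meet. The longer one (chr8:17933096-17942185, hg19) took 4.09% of reads in mutant and 2.37% in wild-type JVM3, 5.85% and 3.20% in mutant and wild-type HG3, and 3.80% and 3.57% in mutant and wild-type MEC1. The HG3 values rest on 55 of 940 reads in mutant and 18 of 562 in wild type. Its use was higher with mutant U1 in all 3 lines, by less than the 5 points set for a call.

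Among the wild-type libraries, ASAH1 was highest in HG3 and lowest in JVM3. The log2 difference was 1.11 for HG3 against JVM3, 0.81 for MEC1 against JVM3 and 0.30 for HG3 against MEC1, given with no test. Over all 6 groups the order was mutant HG3, wild-type HG3, wild-type MEC1, mutant MEC1, wild-type JVM3 and mutant JVM3, and no neighbours in it overlapped in their replicate values. Differences among wild-type lines were common: 82.8% of tested genes and all 9 other enzymes passed edgeR's test over the 3 lines. For single lines or between lines, p-values reflect technical replicates alone.

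The 5 genes whose log2 CPM most resembled ASAH1 over the 6 groups, among 9623 genes with a mean of at least 10 CPM, were RCOR3 (Pearson r = 0.993), SERINC3 (0.987), PDPR2P (0.983), ENSG00000138041.11 (0.982) and EIF2D (0.982). RCOR3 had a much smaller range than ASAH1, at 46.5 CPM in mutant and 41.9 CPM in wild-type HG3. With 6 points that share lines, such values describe likeness in shape only and can rest on a single line. Of the other enzymes that met this minimum, CERS6 (r = 0.83) and SPHK2 (0.76) had the highest values and SPTLC2 the lowest (-0.88). CERS6 met it only through HG3, at 89.8 CPM in mutant and 92.1 CPM in wild type, and was under 1 CPM in the other lines. Its r therefore reflects the contrast of HG3 with those lines and not a response to mutant U1. All these r values use the ASAH1 counts by which the gene is treated as chosen, and are description only.

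SGPL1 (ENSG00000166224.12), the sphingosine-1-phosphate lyase, used an inserted exon more with mutant U1 than with wild-type U1 in all 3 lines. Its inserted exon of 117 bases lies between exons 2 and 3 of the coding transcript SGPL1-202. The junction out of it (chr10:72580056-72604230, not in GENCODE 29) took 26 of 97 reads entering exon 3 in mutant JVM3, which is 26.8% (95% Wilson interval 19.0 to 36.4), against 1 of 95 (1.05%) in wild type. It took 27 of 77 reads (35.1%, 25.3 to 46.2) in mutant HG3, against 4 of 77 (5.19%) in wild type. In MEC1 it took 31 of 58 reads (53.4%, 40.8 to 65.7) in mutant and 0 of 51 in wild type, for which the interval reaches 7%. The mutant columns were therefore all above the wild-type columns, with no overlap of their intervals within a line. The mean change was 36.4 points ± 14.9 (SD over 3 lines), with an adjusted p of 1.51e-05 (edgeR diffSpliceDGE over 35857 junctions sharing an acceptor). Of those junctions 2% were called as used more with mutant U1 and 0.784% as used less. Among the 24 acceptor tests in these enzymes outside ASAH1, this was the single call.

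**Figure D3:**
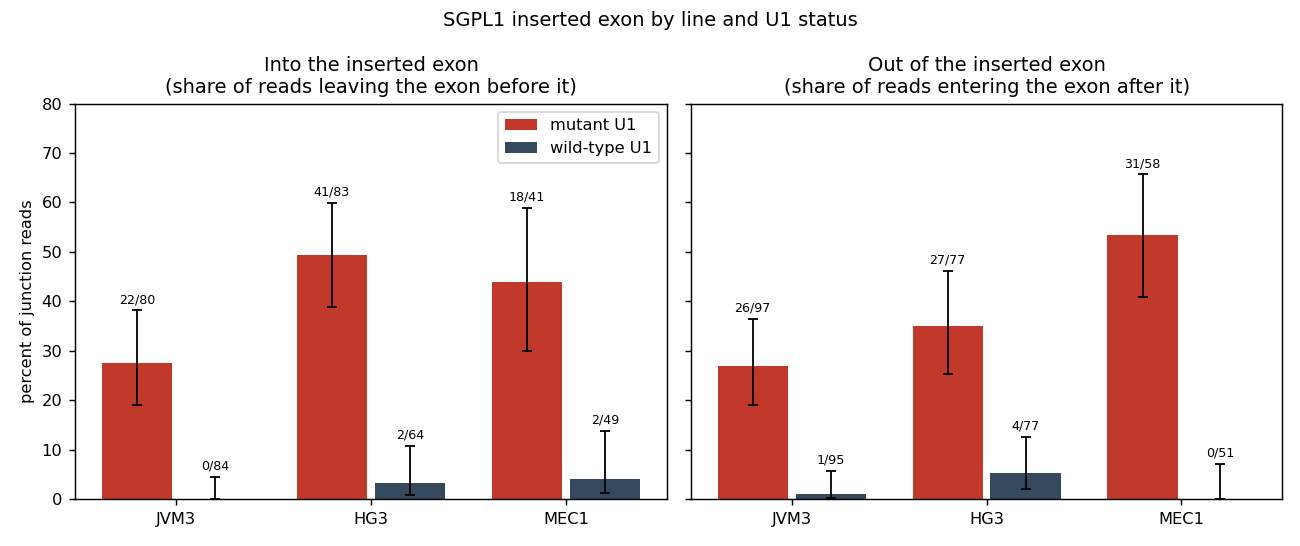
Share of junction reads that enter (left) or leave (right) the inserted SGPL1 exon, in percent, with mutant left of wild type in each line. Each bar is 1 pooled column, whiskers are 95% Wilson intervals and the numbers are reads over all reads at that site. Mutant shares reach 27.5% to 49.4% on the left and 26.8% to 53.4% on the right.

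The junction into the exon (chr10:72576636-72579940, annotated in SGPL1-204) was counted in the same columns. It is not independent of the junction out of the exon, since a fragment may span both. SGPL1-204 ends in an exon with the same acceptor, so reads into it alone cannot separate the 2 forms. Among reads leaving exon 2 the junction into the exon took 22 of 80 (27.5%) in mutant JVM3 and 0 of 84 in wild type. It took 41 of 83 (49.4%) with mutant U1 and 2 of 64 (3.12%) with wild-type U1 in HG3, and 18 of 41 (43.9%) in mutant and 2 of 49 (4.08%) in wild-type MEC1. The mean change was 37.9 points ± 9.5 (SD over 3 lines, adjusted p = 0.000705, diffSpliceDGE over 39252 junctions sharing a donor, of which 1.33% were called as used more and 0.469% as used less). With limma on log ratios in place of diffSpliceDGE, neither junction passed (adjusted p = 0.0586 out of the exon and 0.0611 into it).

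The direct junction from exon 2 to exon 3 (chr10:72576636-72604230) did not pass. Its share of reads entering exon 3 was 59.8% with mutant U1 and 88.4% with wild-type U1 in JVM3. The shares were 54.5% (mutant) and 80.5% (wild type) in HG3, and 39.7% (mutant) and 92.2% (wild type) in MEC1, a mean difference of -35.7 points (adjusted p = 0.0824, diffSpliceDGE). A junction that reaches exon 3 from a site before exon 2 (chr10:72575882-72604230) had a mean difference of -0.66 points, with an adjusted p of 1. Summed over the lines, the exon was entered by 81 mutant and 4 wild-type reads and left by 84 mutant and 5 wild-type reads.

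**Figure D4:**
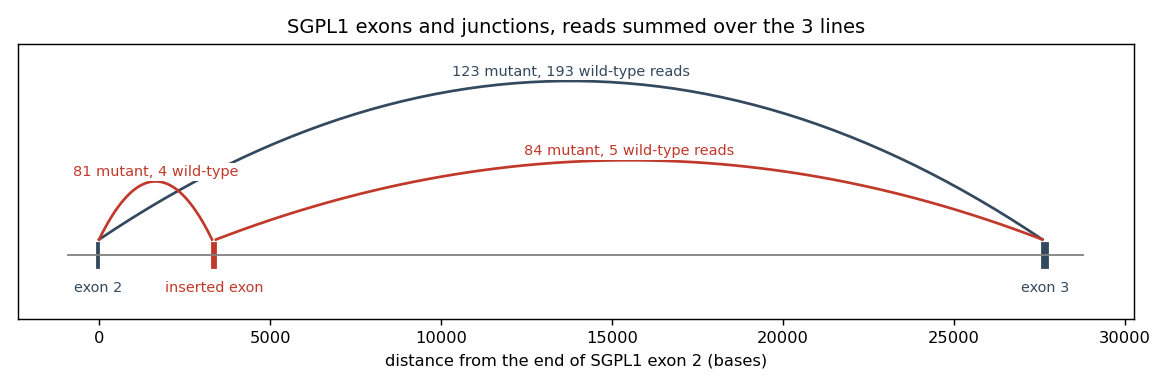
SGPL1 exon 2, the inserted exon and exon 3 to scale, by distance in bases from the end of exon 2, with the junctions as arcs. Reads are summed over the 3 lines: 123 mutant and 193 wild-type reads join exons 2 and 3 directly.

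In GENCODE 29 the same acceptor begins the last exon of SGPL1-204, which is 301 bases long, and the donor seen here lies inside it. The exon length is a multiple of 3. The start codon lies in exon 2, so 27 coding bases, or 9 codons, precede the inserted exon. In that frame the ninth codon of the inserted exon is the stop codon TAA. Whether these transcripts are translated or degraded was not measured.

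The total RNA count of SGPL1 differed little. It was at 50.5 and 52.0 CPM in mutant and 48.7 and 46.9 CPM in wild-type JVM3, and at 52.9 and 53.5 CPM in mutant and 50.3 and 49.4 CPM in wild-type HG3. In MEC1 it was at 31.5 and 30.8 CPM in mutant and 34.9 and 34.9 CPM in wild type, a log2 difference of -0.16 (adjusted p = 0.0146, edgeR). That call was lost with DESeq2 (adjusted p = 0.0506) and when any of 3 of the 4 MEC1 libraries was left out (0.0557 to 0.099). Across lines the log2 difference was 0.01 with an SE of 0.09 (adjusted p = 0.97).

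Across the 3 lines, 0 of the 9 tested enzymes passed the edgeR test of mutant against wild type, in which 3.69% of 21270 genes were called. At an unadjusted p under 0.05 there were 4 (21.8% of all genes). DESeq2 called 1, SPTLC2, where it called 1315 genes in all, against 784 with edgeR. The median log2 difference of the 10 enzymes was 0.08, beside -0.01 over all tested genes. SPHK2, CERS2 and SMPD1 were higher with mutant U1 in all 3 lines, and CERS6 and SPTLC2 were lower in all 3. Of all tested genes 20.6% were higher and 22.1% lower in all 3 lines. When technical replicates were fitted as 12 separate libraries, SPTLC2, SMPD1, SPHK2 and CERS2 passed (adjusted p = 0.00086, 0.000104, 0.000554 and 0.000673, edgeR). That fit called 6641 of the 21270 genes. It counts technical replicates as separate samples, so its p-values are not evidence across lines.

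Within lines the test called 3 of the 9 enzymes higher and 0 lower with mutant U1 in JVM3, where 10.4% of genes were called higher and 12% lower, 22.4% in all. In HG3 it called 4 higher and 2 lower, beside 18.7% and 19.6% of genes, 38.3% in all. In MEC1 it called 4 higher and 3 lower, beside 18% and 18.6% of genes, 36.6% in all. The 3 genes called higher in every line were SMPD1, SPHK2 and CERS2, and none was called lower in every line. Over all genes 4.34% were called higher and 4.65% lower in every line.

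SPTLC2 (ENSG00000100596.2), a catalytic subunit of serine palmitoyltransferase, fell with mutant U1 in HG3 and MEC1. In HG3 it was at 48.0 and 52.1 CPM in mutant, against 79.2 and 82.3 CPM in wild type (log2 difference -0.69, adjusted p = 2.63e-16, edgeR). In MEC1 it was at 61.2 and 64.5 CPM in mutant, against 89.2 and 85.2 CPM in wild type (-0.47, adjusted p = 1.1e-11). In JVM3 it was at 115 and 120 CPM in mutant, against 128 and 126 CPM in wild type (-0.11, adjusted p = 0.0684). The libraries did not overlap in any line, which can easily occur with 2 technical replicates a side. The size of the difference itself differed between lines (adjusted p = 2.16e-09, edgeR interaction test, which called 32% of genes). Junction reads gave median mutant over wild-type ratios of 0.997, 0.637 and 0.839 over 4 junctions in JVM3, HG3 and MEC1. Across lines the log2 difference was -0.43 with an SE of 0.17 (adjusted p = 0.0752, edgeR). It passed with DESeq2 (0.0382) and without the filter on low counts (0.000225), settings that called 1315 and 2540 genes, against 784. It did not pass without JVM3, HG3 or MEC1 (adjusted p = 0.0583, 0.212 and 0.248, edgeR). With DESeq2 size factors in edgeR (0.071) or with no line block it did not pass either.

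SPTLC1 (ENSG00000090054.9), the partner subunit, passed in no line. Mutant JVM3 libraries had 50.2 and 51.2 CPM, against 47.8 and 52.2 CPM in wild type. Mutant HG3 libraries had 44.6 and 45.9 CPM, against 43.0 and 43.7 CPM in wild type, and mutant MEC1 libraries 81.5 and 82.4 CPM, against 80.3 and 84.9 CPM in wild type. Its ratios were 1.01 (0.962 to 1.06), 1.04 (0.987 to 1.09) and 0.993 (0.958 to 1.03) in JVM3, HG3 and MEC1, with 95% counting intervals.

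SMPD1 (ENSG00000166311.5) rose with mutant U1 in each line. It was at 11.1 and 11.6 CPM in mutant and 8.73 and 9.15 CPM in wild-type JVM3 (log2 difference 0.34, adjusted p = 0.00506, edgeR). In HG3 it was at 13.4 and 14.4 CPM in mutant and 11.2 and 10.5 CPM in wild type (0.35, adjusted p = 0.00107), and in MEC1 at 11.1 and 11.2 CPM in mutant and 7.56 and 8.14 CPM in wild type (0.51, adjusted p = 1.61e-05). All mutant libraries lay above the wild-type libraries of their line, which can easily occur with 2 technical replicates a side. Across lines it averaged 12.1 ± 1.53 CPM in mutant and 9.24 ± 1.58 CPM in wild-type cells (SD, n = 3 lines each), a log2 difference of 0.40 with an SE of 0.06 and an adjusted p of 0.086 (edgeR). The JVM3 call was lost without mutant replicate 2 (adjusted p = 0.0673) or wild-type replicate 1 (0.0641). SMPD1 junctions held 213 mutant and 157 wild-type reads in JVM3, 230 and 179 in HG3, and 214 and 149 in MEC1. The 1 junction with at least 100 reads in JVM3 had a mutant over wild-type ratio of 0.903, and the 1 in HG3 had 1.64.

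Both sphingosine kinases were measured, at very different depths. SPHK2 (ENSG00000063176.11) rose in each line: 20.5 and 20.8 CPM in mutant against 16.5 and 17.0 CPM in wild-type JVM3, 25.6 and 28.2 CPM in mutant against 23.7 and 22.6 CPM in wild-type HG3, and 24.7 and 22.4 CPM in mutant against 19.8 and 17.8 CPM in wild-type MEC1. Its log2 differences were 0.30, 0.21 and 0.33 in JVM3, HG3 and MEC1 (adjusted p = 0.00177, 0.011 and 0.000182, edgeR). The HG3 call was lost with DESeq2 (adjusted p = 0.106), without mutant replicate 2 (0.253) and without wild-type replicate 2 (0.0982). Junction reads gave median mutant over wild-type ratios of 1.32, 1.03 and 1.38 over 2 junctions in JVM3, HG3 and MEC1. In HG3 the SPHK2 junctions held 260 mutant and 282 wild-type reads, with no clear rise. Across lines the log2 difference was 0.28 with an SE of 0.04 (adjusted p = 0.124).

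SPHK1 (ENSG00000176170.9) had 8 to 61 counts per library. It had 32 and 23 counts in mutant HG3, against 61 and 40 in wild type (log2 difference -0.85, adjusted p = 0.0173, edgeR). In MEC1 it had 22 and 23 counts in mutant, against 9 and 8 in wild type (1.26, adjusted p = 0.0132). In JVM3 it had 61 and 52 counts in mutant, against 33 and 55 in wild type (0.21, adjusted p = 0.661). The difference between lines passed (adjusted p = 0.00253, edgeR interaction test), but neither the HG3 nor the MEC1 call held with DESeq2 (adjusted p = 0.134 and 0.0599). Leaving out HG3 mutant replicate 2 or wild-type replicate 1 (0.202 and 0.19), or MEC1 mutant replicate 2, wild-type replicate 1 or wild-type replicate 2 (0.0944, 0.077 and 0.056), also ended them. No SPHK1 junction was matched.

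Of the 10 enzymes, CERS6 had the largest difference between wild-type lines. CERS6 (ENSG00000172292.10), which makes mainly C16 ceramide, was at 87.5 and 92.0 CPM in mutant and 89.1 and 95.1 CPM in wild-type HG3. It was at 0.122 and 0.137 CPM in mutant and 0.141 and 0.329 CPM in wild-type JVM3, and at 0.240 and 0.385 CPM in mutant and 0.571 and 0.760 CPM in wild-type MEC1. In wild-type cells the log2 difference was 8.54 for HG3 against JVM3 (adjusted p = 3.54e-42, edgeR) and 7.12 for HG3 against MEC1 (adjusted p = 2.65e-42). Its 2 junctions with at least 20 reads held 339 mutant and 332 wild-type reads in HG3, and at most 1 read in any other column. In MEC1 the gene fell with mutant U1, by 1.10 on the log2 scale (23 counts in mutant and 45 in wild type, adjusted p = 0.008), a call lost without mutant replicate 1 (0.183) or wild-type replicate 2 (0.118).

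CERS2 (ENSG00000143418.15), which makes very long chain ceramides, rose by a similar small amount in each line. It was at 59.0 and 60.2 CPM in mutant and 52.6 and 53.5 CPM in wild-type JVM3, 54.4 and 53.5 CPM in mutant and 48.4 and 45.7 CPM in wild-type HG3, and 91.6 and 93.6 CPM in mutant and 82.0 and 80.7 CPM in wild-type MEC1. The log2 differences were 0.17, 0.20 and 0.19 in JVM3, HG3 and MEC1 (adjusted p = 0.00591, 0.000789 and 0.000458, edgeR), and 0.18 across lines with an adjusted p of 0.212. The JVM3 call was lost without mutant replicate 2 (0.0702) or wild-type replicate 1 (0.0663).

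CERS5 (ENSG00000139624.8), also a C16 ceramide synthase, rose in HG3 alone among the 3 tests within lines. It was at 33.3 and 29.9 CPM in mutant and 25.6 and 27.1 CPM in wild-type HG3 (log2 difference 0.26, adjusted p = 0.0007, edgeR), a call lost without mutant replicate 1 (0.0972). It was at 36.1 and 36.9 CPM in mutant and 34.6 and 34.2 CPM in wild-type JVM3, and at 9.27 and 9.68 CPM in mutant and 10.1 and 9.69 CPM in wild-type MEC1. The difference between lines had an adjusted p of 0.0348 (edgeR interaction test).

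**Figure D5:**
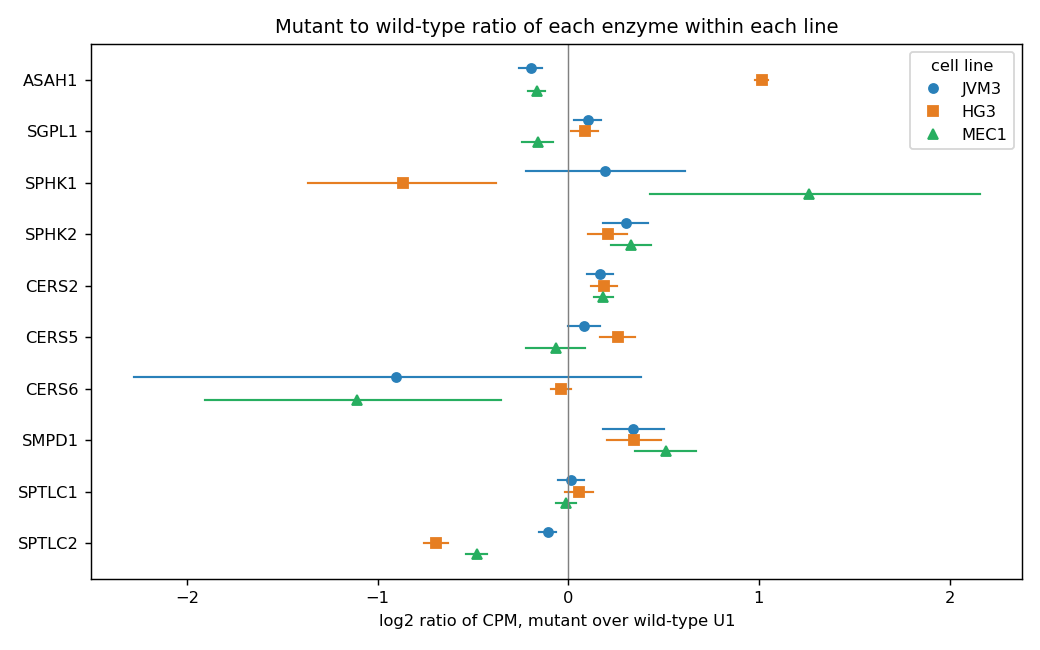
log2 ratio of CPM, mutant over wild-type U1, for each enzyme in each line. Lines are exact 95% counting intervals of the 2 replicates' summed counts and cover counting error only. SMPD1, SPHK2 and CERS2 lie above 0 in all 3 lines, and ASAH1 is above 0 only in HG3 of the 3 lines.

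In wild-type cells most enzymes also differed between pairs of lines. Of the 9 other than ASAH1, the edgeR test called 7 for HG3 against JVM3 (63.4% of genes), 8 for MEC1 against JVM3 (71.8%) and 9 for HG3 against MEC1 (67.5%). CERS5 was lowest in MEC1 (log2 difference -1.80 against JVM3, adjusted p = 5.5e-26) and SPHK1 too (-2.49, adjusted p = 6.22e-08). SPTLC2 was highest in JVM3 (HG3 against JVM3 -0.65, adjusted p = 2.5e-17), and CERS2 and SPTLC1 in MEC1 (0.62 and 0.72 against JVM3, adjusted p = 2.86e-16 and 9.01e-18). SGPL1 and SPHK1 in HG3 against JVM3 (0.295 and 0.747) and SMPD1 in MEC1 against JVM3 (0.0782) did not pass.

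Levels between genes were compared as RPKM, the CPM divided by the length of merged GENCODE 29 exons in kilobases. In wild-type lines CERS2 stood at 10.1 to 17.5, SPTLC2 at 8.83 to 13.9 and SPTLC1 at 6.69 to 12.7. ASAH1 stood at 4.70 to 10.2 and SGPL1 at 4.66 to 6.66. SMPD1 stood at 2.85 to 3.95, SPHK2 at 2.79 to 3.85 and CERS5 at 1.46 to 5.10, and SPHK1 at 0.0564 to 0.344. CERS6 ran from 0.0325 in JVM3 to 12.7 in HG3. The ranges of neighbours in this order overlapped, except SGPL1 with SMPD1 and CERS5 with SPHK1. The merged ASAH1 exons, 15378 bases, are the longest of the 10 genes and lower its value.

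Other junctions named by size did not pass. At the SPHK2 acceptor chr19:49128333-49129148 the minor junction took 1.54% in mutant and 9.09% in wild-type JVM3, 2.27% and 3.37% in mutant and wild-type HG3, and 6.06% and 12.8% in mutant and wild-type MEC1, a mean of -5.12 points (adjusted p = 0.684, diffSpliceDGE). At CERS5 the junction chr12:50537840-50560884 differed by 8.26 points and its competitor chr12:50537840-50538552 by -7.40 points (adjusted p = 1 and 0.849), on 21 to 86 reads a column. The CERS5 junction chr12:50538752-50560884 differed by -6.24 points and SPHK2 chr19:49131534-49133691 by 8.84 points among reads from their donors (adjusted p = 1 for both). The SPHK2 difference was 22.1 points in HG3, 1.40 in JVM3 and 3.01 in MEC1.

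The rest of the pathway was read from lists of 67 further genes, of which 57 were tested. CERS4, another ceramide synthase, rose: 45.8 ± 20.2 CPM in mutant and 34.1 ± 15.1 CPM in wild-type cells (SD, n = 3 lines each; log2 difference 0.42, SE 0.08, adjusted p = 0.0427, edgeR). NEU3, a ganglioside sialidase, fell: 20.7 ± 6.96 CPM in mutant and 29.2 ± 13.2 CPM in wild-type cells (-0.46, SE 0.09, adjusted p = 0.0415, edgeR). The other 55 did not pass, against 1.83% of all genes called higher and 1.86% called lower. Both calls were lost without any 1 of the lines, at adjusted p = 0.0698 to 0.153 for CERS4 and 0.0794 to 0.163 for NEU3. The median log2 difference of the 57 was -0.06, beside -0.01 over all genes. Of the 57, 10 were higher and 21 lower with mutant U1 in all 3 lines, beside 20.6% and 22.1% of all genes, and these counts include differences near 0.

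By group, with the enzymes above now included, none of the 6 tested genes of backbone synthesis passed. Of these 6, 4 were lower in all 3 lines, SPTLC2 among them, beside 22.1% of all genes. SPTSSB, a small subunit of serine palmitoyltransferase, had a log2 difference of -1.07 across lines, most of it from HG3 (-2.09). Among 4 tested ceramide synthases 1 rose and 3 did not pass. None of the 3 ORMDL proteins, inhibitors of serine palmitoyltransferase, passed: ORMDL2 had -0.41 and ORMDL1 0.23. None of the 5 tested genes listed with the ceramidases, other than ASAH1, passed. ACER2, a Golgi ceramidase, was higher in all 3 lines at 0.45 and passed with DESeq2 (adjusted p = 0.0404), and ASAH2 had 0.53 at under 1 CPM.

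None of the 6 genes listed with the sphingomyelinases passed. Of these, SMPDL3A and SMPDL3B, listed as relatives by name, had -0.50 and -0.41, both under 1 CPM in every group. None of the 7 genes of sphingomyelin synthesis and ceramide transport passed, with ceramide kinase CERK at -0.33 and the glycolipid transfer protein GLTP at 0.31, which passed with DESeq2 (adjusted p = 0.0321). None of the 8 tested kinases, lyase and phosphatases passed, with the phosphatase SGPP2 at -0.38. None of the 5 tested receptors and transporters of sphingosine-1-phosphate passed, with MFSD2B at -0.56 and the receptor S1PR4 at -0.25. None of the 9 tested genes of glycosphingolipid synthesis passed, with B4GALNT1 at -0.38 and ST8SIA1 at 0.37. Of 13 genes of glycosphingolipid breakdown, not all of them lysosomal, 1 fell (NEU3) and 12 did not pass. Of the 13, 8 were lower in all 3 lines, beside 22.1% of all genes.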

How the data were processed

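Read counts per gene and per splice junction were used as deposited by the authors. The tools named are STAR (2.5.4b) and HTSeq (0.9.1), on hg19 and GRCh37, per the submitters' processing notes. Libraries were stranded and ribosome-depleted, per the labels' protocols. For the strand setting, the annotation release and the extraction of junctions: not given in the sources used here. Junction columns carry no replicate number and were taken as pooled. No column of per-sample values was left unused (0).

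Genes were tested with edgeR 4.0.16 in R 4.3.3 (quasi-likelihood, TMM, filterByExpr, Benjamini-Hochberg adjusted p under 0.05 over 21270 genes). Across lines, replicates were summed and the line was a block. Within lines, 12 libraries formed 6 groups. The SE is that of the 3 lines' values. Junctions of at least 20 reads were tested with diffSpliceDGE, and called at an adjusted p under 0.05 where usage moved in 1 direction in all lines, by 5 points or more on average. DESeq2 1.42.0 and limma 3.58.1 gave alternatives. The scripts were tested on simulated data. Intervals cover counting error only, at 95%.

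Junctions were named by intron lengths and spacing shared with GENCODE 29, on another build, with at least 2 introns matching and 2 times as many as the next best place. No coordinates were converted. Replicates differed by more than counting noise (mean chi-square per gene 2.20 to 5.03). Nothing states that they came from separate cultures.

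The members and lists were chosen with earlier results of these data known, so no pattern here is independent support. Named were all members, pathway genes that passed, up to 2 genes per list with the largest log2 difference, and junctions changed by at least 5 points in the same direction in every line. A gene that this rule names is not reported here.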

Additional observations from a re-analysis of the deposited data

Results flagged for a closer look

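The response to mutant U1 differed between the 3 lines, by edgeR's interaction test over technical replicates, for 5 of 9 enzymes, beside 32% of all genes. The adjusted p was 2.16e-09 for SPTLC2, 0.00253 for SPHK1, 0.00500 for SGPL1, 0.0199 for CERS6 and 0.0348 for CERS5. The SGPL1 value concerns its total count, which was higher with mutant U1 in JVM3 and HG3 and lower in MEC1. SPHK1 and CERS6 rest on few counts in the lines that differ.

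ASAH1 moved one way in HG3 and the opposite way in the other lines in every library, with log2 differences of 1.02 in HG3, -0.19 in JVM3 and -0.17 in MEC1. That difference was not tested.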

How the results depend on the processing

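Of 509 alternative values for 59 results, 437 kept direction and call, or for counts and untested values stayed within 1.5 times or the spread between samples. Genes called across lines numbered 784, against 1315 with DESeq2, 2540 with no filter on low counts, 6641 with the 12 libraries unsummed, 0 in edgeR with no line block (268 at an unadjusted p under 0.05), 320 to 380 without 1 line and 845 to 1051 without 1 replicate. The same replicate numbers deviated together in all 15 pairs of groups (correlation 0.0625 to 0.311), but only 13 were over 0.1, so they are not taken to pair the libraries. The replicate block gave 6514 calls, beside 6641 without it, and SPTLC2, SMPD1, SPHK2 and CERS2 passed in both. Other pathway genes called numbered 2, against 4 with DESeq2 and 0 in edgeR without any 1 line (8 to 13 at an unadjusted p under 0.05). Junction calls numbered 998, against 441 with limma and 536 to 811 without 1 line. With limma the SGPL1 junctions kept 36.4 and 37.9 points without passing. Junctions sharing a donor gave no value for the junction out of the exon, the only one at its donor.

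Log2 differences across lines that changed sign were those of ASAH1, SGPL1, SPTLC1 and SPHK1. ASAH1 was 0.41 without JVM3, -0.18 without HG3 and 0.42 without MEC1. SGPL1 across lines was -0.0034 with DESeq2, -0.012 with no filter, -0.050 to 0.10 without 1 line (-0.030 without HG3) and -0.0041 to 0.018 without single replicates. SPTLC1 was -0.00083 with no filter. SPHK1 was -0.066 with no line block, -0.30 to 0.58 without 1 line (-0.030 without JVM3) and -0.021 to 0.19 without single replicates. The causes were not tested. Other scalings moved the median of all genes by at most 0.0173. Depth limits SPHK1, CERS6 outside HG3, and junctions of under 100 reads a site.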
